A study of Homo sapiens with 15 samples.

Results

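The genes described here are 41 genes of the lysosome and of autophagy, read in 5 lines of C4-2 prostate cancer cells in which ATGL, the triglyceride lipase encoded by PNPLA2, was removed and put back. They were chosen by symbol, as the best known autophagy receptors, autophagosome proteins, lysosomal membrane proteins, lysosomal hydrolases and proton pump subunits, together with the transcription factors of the lysosome. All 41 had exactly 1 entry among the 20806 gene entries measured, and all 41 were among the 14246 genes that passed the filter on low counts. C4-2 is an established castration-resistant line derived from LNCaP. The 5 lines were a scramble control with its own ATGL (Scramble), an ATGL knockout (KO), and that knockout with wild-type ATGL (KO_WT), with S47A ATGL (KO_S47A), which the submitters describe as lipolytically inactive, or with S404A ATGL (KO_S404A). All cells were kept in RPMI1640 lacking glucose to which 5 mM glucose and 5% dialyzed serum were added. There were 3 poly(A) RNA-seq libraries a line, numbered 1 to 3 in the labels. Each genotype is 1 line, and the labels state neither whether it was cloned or pooled nor which promoter drove the added proteins. They also do not call the libraries of a line separate cultures, and p-values therefore cover only the spread among these libraries, which may be technical.

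Autophagy encloses cytoplasm, including lipid droplets, in a membrane that grows around it and then fuses with the lysosome. The ATG8 proteins are attached to that membrane by a conjugation machinery and bind receptors such as SQSTM1 that hold the cargo. In the acid lumen of the lysosome, kept acid by a proton-pumping ATPase, hydrolases break the cargo down, and LIPA, lysosomal acid lipase, cleaves triglycerides and cholesteryl esters delivered in this way. ATGL and LIPA are thus the enzymes of 2 routes of lipid droplet breakdown, cytosolic lipolysis and lipophagy. TFEB, TFE3 and MITF are related transcription factors that bind a short element, the CLEAR box, in promoters of many lysosomal genes.

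Counts in genes ran from 40846694 to 64345775 per library. Levels are CPM, the counts of a gene relative to the library's total, scaled by the TMM factors of edgeR, and a gene is called when its Benjamini-Hochberg adjusted p in edgeR's quasi-likelihood test over all 14246 genes was under 0.05. PNPLA2, which checks the labels, had 45.3 to 54.3 CPM in the Scramble libraries, 9.11 to 13.0 CPM in KO, and between 110 and 493 CPM in the 9 addback libraries. Libraries numbered 3 of different lines deviated together from their line means (correlations 0.40 to 0.68). Those numbered 1 and 2 did so less clearly, and in several pairs of lines correlated more with a library of another number. Values of the fit with the library number as a block are given where they change a call. The library KO_S404A 2 stood apart in having the lowest share of unassigned reads (13.2%) and the longest count-weighted gene length (3886 bases). Of the macrophage and blood markers, whose cells are rich in lysosomal transcripts, the sum was 7.48 to 11.4 CPM, of which CD68, itself a lysosomal protein, made up 7.12 to 11.0 CPM, while PTPRC, which encodes CD45, was at 0 counts in 14 of 15 libraries. In bulk RNA, fewer cells of a kind and less RNA per cell cannot be told apart.

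The promoters of 33 of the 41 genes were found in the RefSeq table (GRCh38.p14), each as a window from 250 bases before to 50 bases after the start site. Windows were searched for 2 kinds of element that could group the genes, the CLEAR box and the element bound by ATF4. The CLEAR box TCACGTGA, which reads the same on both strands and contains the E-box CACGTG, was in 7 of the 33 windows (21.2%), in 1.04% of all 27305 windows of that table and in 1.86% of the windows of tested genes. The plain E-box CACGTG was in 9 of 33 (27.3%), in 7.43% of all windows and in 10.1% of those of tested genes. The ATF4 element TGATGCAA, searched on both strands, was in 0 of 33 windows, in 0.923% of all and in 0.520% of those of tested genes. TGATGNAA was in 0 of 33, in 3.67% of all and in 1.79% of those of tested genes. With shares this low, 0 of 33 windows does not set these genes apart from others. Shown first are the 7 promoters with a CLEAR box, from 100 bases before to 15 bases after the start site, in lower case with the CLEAR box in capitals. LAMP1 at chr13:113297139-113297253 on the plus strand and MCOLN1 at chr19:7522524-7522638 on the plus strand belong to lysosomal membrane proteins. CLN3 at chr16:28492060-28492174 on the minus strand and CTSA at chr20:45891235-45891349 on the plus strand belong to a membrane protein and a protease. GAA at chr17:80101481-80101595 on the plus strand and ATP6V0D1 at chr16:67481143-67481257 on the minus strand belong to a glycogen hydrolase and a pump subunit, and ATG3 at chr3:112561948-112562062 on the minus strand to a conjugation enzyme.
LAMP1: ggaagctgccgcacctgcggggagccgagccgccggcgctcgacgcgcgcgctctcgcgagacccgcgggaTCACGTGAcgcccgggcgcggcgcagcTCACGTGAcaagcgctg
MCOLN1: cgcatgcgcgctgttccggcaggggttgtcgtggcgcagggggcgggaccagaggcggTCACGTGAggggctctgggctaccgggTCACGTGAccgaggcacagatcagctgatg
CLN3: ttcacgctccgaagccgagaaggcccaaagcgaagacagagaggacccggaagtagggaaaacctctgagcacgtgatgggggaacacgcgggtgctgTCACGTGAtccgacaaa
CTSA: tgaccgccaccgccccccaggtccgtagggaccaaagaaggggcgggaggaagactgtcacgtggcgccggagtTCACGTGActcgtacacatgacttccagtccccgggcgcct
GAA: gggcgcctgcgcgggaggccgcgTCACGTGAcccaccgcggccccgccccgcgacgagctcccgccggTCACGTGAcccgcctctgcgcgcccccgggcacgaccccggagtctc
ATP6V0D1: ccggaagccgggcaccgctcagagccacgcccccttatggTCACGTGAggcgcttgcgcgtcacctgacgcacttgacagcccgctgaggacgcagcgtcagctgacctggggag
ATG3: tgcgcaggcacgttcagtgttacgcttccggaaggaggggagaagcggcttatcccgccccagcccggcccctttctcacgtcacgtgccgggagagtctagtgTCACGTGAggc

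Counted from the start site as position 1, with no position 0, the first base of the CLEAR box lay at -29 and -2 in LAMP1, at -42 and -15 in MCOLN1, and at -77 and -32 in GAA. It lay at -2 in CLN3, at -26 in CTSA, at -60 in ATP6V0D1 and at 5 in ATG3. Each therefore lay within 100 bases of the start site, which the search did not ask for. A match is a description of letters and does not show that a factor binds there. For comparison, the same stretches of the 6 genes whose values the results turn on follow, with no exact TCACGTGA and so no capitals. Only exact matches were searched, so variants of the box in these stretches are not excluded. They are MAP1LC3B at chr16:87392236-87392350 on the plus strand and GABARAPL1 at chr12:10212777-10212891 on the plus strand, WIPI1 at chr17:68457482-68457596 on the minus strand and SQSTM1 at chr5:179806293-179806407 on the plus strand, and TFEB at chr6:41735594-41735708 on the minus strand and LIPA at chr10:89414665-89414779 on the minus strand.
MAP1LC3B: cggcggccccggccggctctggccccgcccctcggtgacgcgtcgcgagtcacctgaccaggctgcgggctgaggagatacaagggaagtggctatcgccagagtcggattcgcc
GABARAPL1: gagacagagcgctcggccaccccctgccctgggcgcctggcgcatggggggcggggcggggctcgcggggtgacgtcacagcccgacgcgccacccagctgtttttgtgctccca
WIPI1: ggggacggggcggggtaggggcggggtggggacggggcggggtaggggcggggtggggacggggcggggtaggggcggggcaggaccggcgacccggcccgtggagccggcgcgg
SQSTM1: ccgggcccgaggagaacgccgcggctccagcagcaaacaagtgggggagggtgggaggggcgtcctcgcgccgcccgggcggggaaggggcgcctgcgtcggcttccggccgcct
TFEB: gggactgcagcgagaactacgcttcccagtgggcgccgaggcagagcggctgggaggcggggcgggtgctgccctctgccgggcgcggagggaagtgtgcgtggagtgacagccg
LIPA: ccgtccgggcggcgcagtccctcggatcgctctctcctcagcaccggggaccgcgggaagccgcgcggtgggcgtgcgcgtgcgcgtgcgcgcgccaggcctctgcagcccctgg

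Levels between genes are compared as CPM per kilobase of the gene length implied by the deposited FPKM. By the median of 15 libraries the highest was PSAP, the precursor of the saposins that present lipids to hydrolases, at 373 CPM per kilobase. GABARAP, an ATG8 protein, followed at 302 and CTSD, the aspartic protease cathepsin D, at 197. LIPA stood at 23.0, rank 15 of 41. At the low end were UVRAG, a Beclin 1 partner, at 2.19, and the transcription factors MITF and TFEB at 1.47 and 1.39. They also differed in how far they moved among libraries. WIPI1, MAP1LC3B and GABARAPL1 spanned 4.02-, 3.90- and 3.00-fold in CPM from the lowest to the highest of 15 libraries, and ATP6V1A, a catalytic pump subunit, spanned 1.14-fold.

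**Figure D1:**
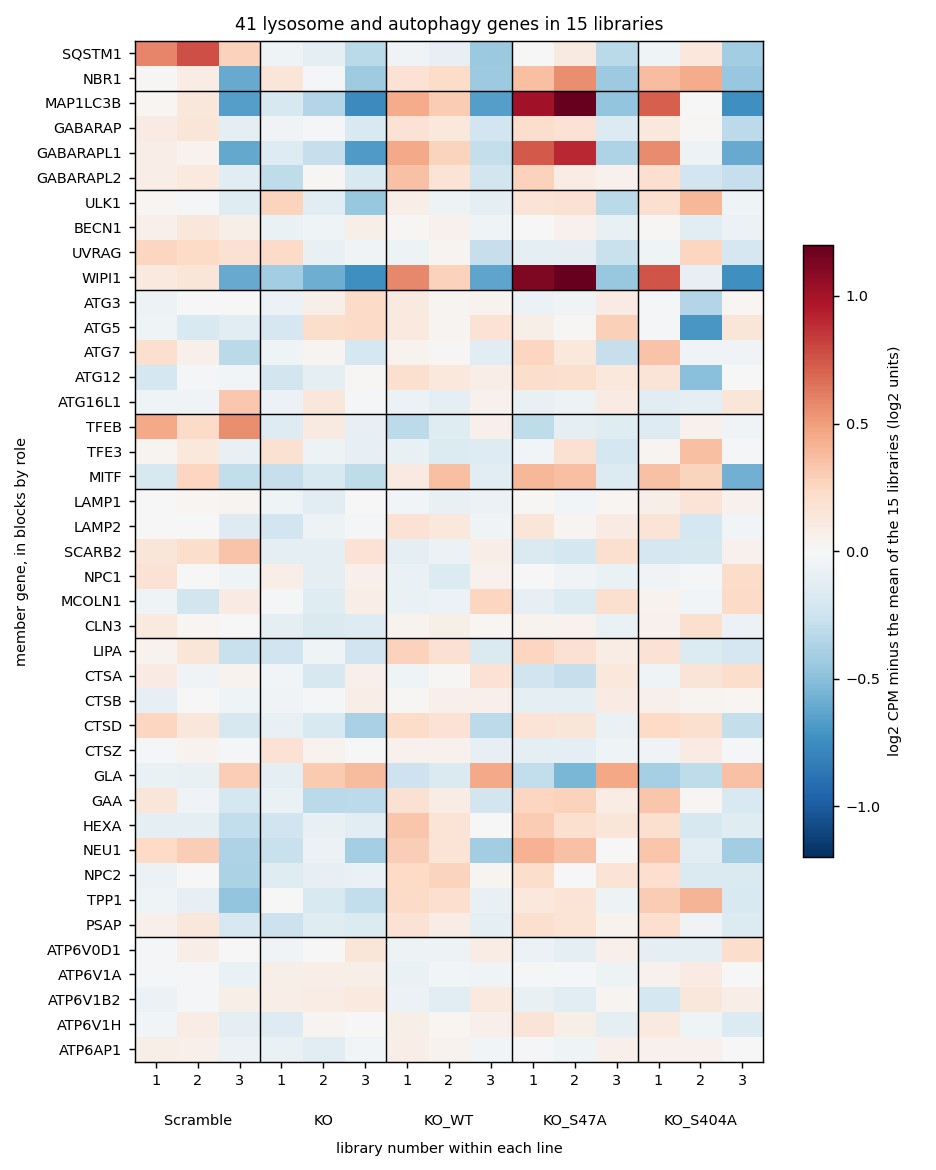
Heat map of the 41 genes (rows, in blocks by role) in the 15 libraries (columns, 3 for each line). Colour gives log2 CPM minus that gene's mean over the 15 libraries, and the widest range is in WIPI1 and MAP1LC3B, at 4.02- and 3.90-fold between the lowest and the highest library.

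Against Scramble, the receptor SQSTM1 and the transcription factor TFEB were lower in the 4 lines made from the knockout, whichever protein had been added. SQSTM1, also called p62, links ubiquitin-tagged cargo to the ATG8 proteins. Its levels in libraries 1, 2 and 3 were 207, 236 and 167 CPM in Scramble and 133, 128 and 110 CPM in KO. They were 134, 129 and 101 CPM in KO_WT, 137, 148 and 110 CPM in KO_S47A, and 133, 150 and 103 CPM in KO_S404A. Every Scramble library lay above every library of the other 4 lines.

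In KO minus Scramble, SQSTM1 was the only one of 41 genes called (0 higher, 1 lower, 2.44%), beside 2.69% of all genes (0.969% higher, 1.72% lower). Its log2 difference was −0.71 (SE 0.17, 95% interval −1.09 to −0.34, adjusted p = 0.0387). The comparisons with Scramble share their 3 control libraries, so their values are given side by side and do not support each other. SQSTM1 was also called in KO_WT minus Scramble, at −0.74 (SE 0.17, adjusted p = 0.0260). In KO_S47A minus Scramble it stood at −0.62 (SE 0.17, adjusted p = 0.0581) and in KO_S404A minus Scramble at −0.66 (SE 0.17, adjusted p = 0.0529), neither of them called. With the library number as a block the first of these was called (adjusted p = 9.59e-05, range over the 12 alternatives 9.59e-05 to 0.176), and the second was called under 6 of the 12 alternatives, DESeq2 among them (adjusted p 5.97e-05 to 0.191). The KO call was lost without Scramble library 1 or 2 or without any 1 KO library, with log2 differences from −0.61 to −0.84 and adjusted p from 0.0279 to 0.169 over the 6 omissions. The KO_WT call was lost without Scramble library 1 or 2 or any 1 KO_WT library, and in a fit of those 2 lines only (adjusted p = 0.0618, range over the 12 alternatives 1.98e-05 to 0.109).

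TFEB had 10.6, 9.05 and 11.4 CPM in Scramble and 6.95, 8.34 and 7.24 CPM in KO. It had 6.24, 6.98 and 8.07 CPM in KO_WT, 6.28, 7.18 and 7.00 CPM in KO_S47A, and 6.94, 8.01 and 7.52 CPM in KO_S404A. The 3 Scramble libraries again lay above the 12 others, with the nearest values 9.05 and 8.34 CPM. TFEB was called in KO_WT minus Scramble at −0.54 (SE 0.13, adjusted p = 0.0404) and in KO_S47A minus Scramble at −0.60 (SE 0.13, adjusted p = 0.0238). For KO minus Scramble the value was −0.46 (SE 0.13, adjusted p = 0.101), called only with the block or by DESeq2 (adjusted p over the 12 alternatives 0.0230 to 0.312). In KO_S404A minus Scramble it was −0.47 (SE 0.13, adjusted p = 0.0813), called under 2 of the 12 alternatives, DESeq2 among them (adjusted p 0.0158 to 0.274). The KO_WT call was lost without Scramble library 1 or 3 or KO_WT library 1 or 2, and the KO_S47A call without Scramble library 1 or 3 or KO_S47A library 1 or 2, with adjusted p reaching 0.183 and 0.121. Both were lost in fits of the 2 lines alone, and the KO_WT call also without the filter on low counts and with libraries 1 and 2 alone.

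SQSTM1 and TFEB were thus the 2 of 41 genes called in KO_WT minus Scramble (0 higher, 2 lower), beside 3.47% of all genes (1.51% higher, 1.96% lower). TFEB was the 1 called in KO_S47A minus Scramble (0 higher, 1 lower), beside 3.82% (1.59% higher, 2.23% lower). In KO_S404A minus Scramble 0 were called by edgeR, beside 3.11% of all genes. There 4 of 41 had an unadjusted p under 0.05, beside 15.7% of all genes, and 2 were called by DESeq2, beside 6.28%. Once Scramble library 3 was left out, 1 was called by edgeR, beside 1.82%. Of the relatives of TFEB, TFE3 ran from 42.9 to 63.8 CPM over the 15 libraries and MITF from 5.72 to 11.2 CPM, and neither was called against Scramble in any line. Of 10 markers of prostate luminal cells, 1 was lower than in Scramble in each of KO_WT and KO_S47A, 2 in each of KO and KO_S404A, and 1 was higher in KO_S404A. Their summed level was 8043 to 8375 CPM in Scramble, 5923 to 6791 CPM in KO, 6837 to 7155 CPM in KO_WT, 5903 to 7656 CPM in KO_S47A and 5721 to 6662 CPM in KO_S404A, with none of the 10 at 0 counts in any library. In this sum, though not for each marker, every Scramble library lay above the 12 others. The part of these markers in the differences from Scramble was not tested.

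With the library number as a block, more genes were called against Scramble, as they were among all genes. In KO minus Scramble 4 were lower and 0 higher beside 8.29% of all genes (3.28% higher, 5.01% lower), namely SQSTM1, TFEB, SCARB2 and CTSD. SCARB2, the membrane protein LIMP-2 that carries glucocerebrosidase to the lysosome, had 341, 356 and 390 CPM in Scramble and 284, 286 and 348 CPM in KO. It had 283, 294 and 325 CPM in KO_WT, 274, 267 and 352 CPM in KO_S47A, and 268, 269 and 319 CPM in KO_S404A. Within each library number the Scramble value was the highest of the 5 lines, while KO library 3 and KO_S47A library 3 overlapped the Scramble range. Its log2 difference with the block was −0.25 (SE 0.07) in KO, −0.27 (SE 0.07) in KO_WT and −0.29 (SE 0.07) in KO_S47A, and in the fit of all libraries without the block it was called in none of them. With libraries 1 and 2 alone it was called in KO_S47A (adjusted p = 0.0166, range over the 12 alternatives 0.0107 to 0.602). The count of 4 became 1 without Scramble library 1 or 3 or KO library 1, and 2 without Scramble library 2 or KO library 2, beside 4.39% to 5.56% of all genes in these fits. Without KO library 3 it became 3, beside 9.26%.

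**Figure D2:**
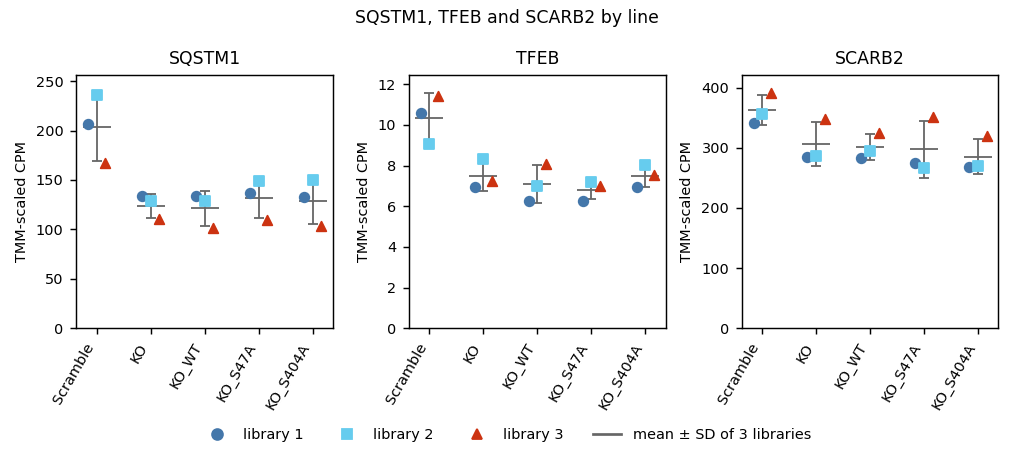
TMM-scaled CPM of SQSTM1, TFEB and SCARB2 (vertical axes from 0) in the 5 lines, with library numbers by marker and grey bars for the mean ± SD of 3 libraries. All 3 Scramble points of SQSTM1 (167 to 236 CPM) and of TFEB (9.05 to 11.4 CPM) lie above the points of the other lines.

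In KO_WT minus Scramble the block gave 2 genes higher and 3 lower beside 10.0% of all genes (4.58% higher, 5.45% lower). The higher were HEXA, the alpha subunit of beta-hexosaminidase, and TPP1, tripeptidyl peptidase 1, and the lower SQSTM1, TFEB and SCARB2. HEXA had 39.6, 39.6 and 34.8 CPM in Scramble, 36.2, 40.4 and 39.2 CPM in KO, 53.8, 48.0 and 42.6 CPM in KO_WT, 52.9, 48.8 and 47.3 CPM in KO_S47A, and 48.9, 37.4 and 38.7 CPM in KO_S404A. The KO_WT and KO_S47A libraries lay above all Scramble and KO libraries, and those of KO_S404A overlapped them. TPP1 had 84.2, 81.4 and 62.7 CPM in Scramble, 87.3, 76.8 and 70.8 CPM in KO, 102, 99.8 and 82.0 CPM in KO_WT, 95.0, 97.3 and 83.4 CPM in KO_S47A, and 108, 115 and 76.5 CPM in KO_S404A. With the block the log2 difference from Scramble in KO_WT was 0.34 (SE 0.10) for HEXA and 0.32 (SE 0.08) for TPP1. The count of 5 became 1 without Scramble library 1 or KO_WT library 1 or 2, 2 without Scramble library 2 or 3, and 3 without KO_WT library 3, beside 5.08% to 7.14% of all genes in these fits.

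In KO_S47A minus Scramble the block gave 7 higher and 4 lower (26.8% of the 41), beside 19.5% of all genes (9.65% higher, 9.88% lower). The higher were NBR1, MAP1LC3B, GABARAPL1, WIPI1, GAA, HEXA and TPP1, and the lower SQSTM1, UVRAG, TFEB and SCARB2. UVRAG, which binds Beclin 1 and acts in autophagosome and endosome maturation, had 17.0, 16.9 and 16.3 CPM in Scramble and 13.3, 13.2 and 11.9 CPM in KO_S47A. It had 16.7, 13.4 and 13.8 CPM in KO, 13.7, 14.6 and 11.8 CPM in KO_WT, and 13.8, 17.1 and 12.5 CPM in KO_S404A. The KO_S47A libraries lay below those of Scramble without overlap, and the log2 difference with the block was −0.39 (SE 0.11). The count of 11 became 2 without Scramble library 1 or KO_S47A library 2, 4 without KO_S47A library 1, and 6 without Scramble library 2 or 3, beside 7.16% to 13.6% of all genes in these fits. Without KO_S47A library 3 it became 9, beside 19.6%.

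In the fit of all 15 libraries without the block, none of the 41 genes was called when any of the 3 addback lines was compared with the knockout. In KO_WT minus KO edgeR called 0 of 41, beside 0.0281% of all genes, and DESeq2 0, beside 0.0562%. An unadjusted p under 0.05 was reached by 3 of 41, beside 7.58% of all genes. With the block 0 were called, beside 0.105%, although 5 were called with the block once KO library 3 was left out, beside 7.90%. In KO_S404A minus KO edgeR called 0, beside 0.0211%, and DESeq2 0, beside 0.0562%, with 3 at an unadjusted p under 0.05, beside 4.08%. In KO_S47A minus KO edgeR called 0, beside 0.00702%, and DESeq2 0, beside 0.232%, with 9 at an unadjusted p under 0.05, beside 16.8%. When libraries 1 and 2 were fitted alone, without the block, 12 of 41 were called in KO_S47A minus KO, beside 21.6% of all genes, and 1 in KO_S404A minus KO, TPP1, beside 2.81%.

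With the block, KO_S47A minus KO had 10 of 41 genes higher and 0 lower. That share, 24.4%, stood beside 22.1% of all genes called, of which 10.6% were higher and 11.5% lower. The 10 were the ATG8 genes MAP1LC3B and GABARAPL1, the phagophore protein WIPI1, the transcription factor MITF, and the lumenal proteins LIPA, CTSD, GAA, HEXA, NEU1 and PSAP. By role they were 2 of 4 ATG8 genes, 1 of 4 initiation genes, 1 of 3 transcription factors and 6 of 12 lumenal enzymes and cofactors, with 0 of 2 receptors, 0 of 5 conjugation genes, 0 of 6 membrane proteins and 0 of 5 pump subunits. The count fell to 4 without KO library 1, beside 7.22% of all genes, to 6 without KO_S47A library 1, beside 7.83%, and to 4 without KO_S47A library 2, beside 2.78%. In the same comparison with the block, 20 of 22 ATF4 and amino acid response genes were higher and 22 of 22 proliferation markers lower, and the part of these in the result was not tested.

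MAP1LC3B encodes LC3B, the ATG8 protein most used to mark autophagosomes. In libraries 1, 2 and 3 it had 46.6, 50.3 and 28.9 CPM in Scramble, 39.9, 36.0 and 26.9 CPM in KO, 62.5, 56.5 and 28.9 CPM in KO_WT, 92.3, 105 and 33.1 CPM in KO_S47A, and 75.2, 45.9 and 27.4 CPM in KO_S404A. Over the lines, libraries 1 and 2 ran from 36.0 to 105 CPM and the 5 libraries numbered 3 from 26.9 to 33.1 CPM. The interaction test of whether a difference between lines depended on library number called no gene in KO_S47A minus KO. With a single library 3 in each line and 5 residual degrees of freedom, it could miss such a dependence. KO_S47A minus KO was 1.16 without the block (SE 0.43, 95% interval 0.20 to 2.13, adjusted p = 0.274) and 1.04 with it (SE 0.19, adjusted p = 0.00439, range over the 12 alternatives 0.00150 to 0.727).

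GABARAPL1, another ATG8 protein, had 34.3, 33.3 and 21.2 CPM in Scramble, 29.2, 26.7 and 20.2 CPM in KO, 44.4, 39.0 and 26.5 CPM in KO_WT, 54.1, 60.6 and 25.0 CPM in KO_S47A, and 48.2, 31.1 and 21.4 CPM in KO_S404A. Within libraries 1 and within libraries 2 the order of the lines was that of MAP1LC3B, with KO the lowest and KO_S47A the highest. KO_S47A minus KO was 0.81 with the block (SE 0.15). Both genes have near-identical copies, MAP1LC3B2 and the GABARAPL3 pseudogene, so their counts are uncertain where reads fit both copies. The other ATG8 genes moved less among libraries, with GABARAP at 214 to 308 CPM and GABARAPL2 at 45.7 to 72.1 CPM, and neither was called between lines.

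WIPI1, which binds phosphatidylinositol 3-phosphate on the growing membrane, had 31.3, 31.8 and 18.9 CPM in Scramble, 21.5, 19.1 and 17.3 CPM in KO, 43.1, 35.0 and 18.5 CPM in KO_WT, 62.6, 69.5 and 21.1 CPM in KO_S47A, and 48.6, 26.9 and 17.3 CPM in KO_S404A. Libraries 1 and 2 ran from 19.1 to 69.5 CPM over the lines, a 3.63-fold span, and libraries 3 from 17.3 to 21.1 CPM, a 1.22-fold span. KO_S47A minus KO was 1.40 without the block (SE 0.44, adjusted p = 0.274) and 1.25 with it (SE 0.23, adjusted p = 0.00439, range over the 12 alternatives 0.00132 to 0.727). Of the other initiation genes, UVRAG is given above. ULK1, the kinase that starts autophagy, and BECN1, a subunit of the lipid kinase complex, ran from 24.4 to 44.2 CPM and from 55.6 to 66.6 CPM. Neither of these 2 was called in any of the comparisons between lines.

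NBR1, a cargo receptor related in domains to SQSTM1, had 147, 154 and 95.8 CPM in Scramble, 161, 144 and 108 CPM in KO, 164, 169 and 107 CPM in KO_WT, 186, 214 and 108 CPM in KO_S47A, and 187, 198 and 106 CPM in KO_S404A. Unlike SQSTM1 it did not have its highest values in Scramble. KO minus Scramble was 0.05 (95% interval −0.60 to 0.70), with a sign that changed without Scramble library 3 (−0.13) or KO library 1 (−0.07), and KO_S47A minus Scramble was 0.33 with the block (SE 0.09).

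**Figure D3:**
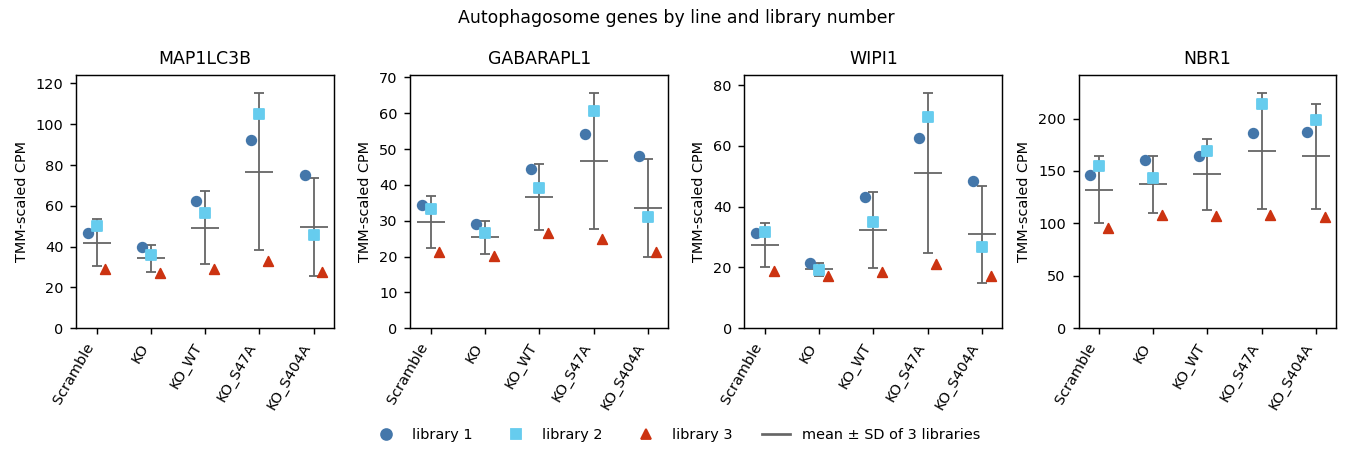
TMM-scaled CPM of MAP1LC3B, GABARAPL1, WIPI1 and NBR1 (vertical axes from 0) in the 5 lines, by library number, with grey bars for the mean ± SD of 3 libraries. Libraries numbered 3 (triangles) are the lowest of each line, and for MAP1LC3B they sit between 26.9 and 33.1 CPM in all 5 lines.

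LIPA, the acid lipase, was called in no comparison between lines in the fit of all libraries without the block. It had 73.5, 78.6 and 59.1 CPM in Scramble, 60.3, 68.7 and 60.6 CPM in KO, 86.4, 80.9 and 63.2 CPM in KO_WT, 85.0, 81.0 and 76.0 CPM in KO_S47A, and 80.3, 63.7 and 61.9 CPM in KO_S404A. By mean the order from low to high was KO at 63.2 ± 4.74 CPM (SD, n = 3), KO_S404A at 68.7 ± 10.1, Scramble at 70.4 ± 10.1, KO_WT at 76.8 ± 12.1 and KO_S47A at 80.7 ± 4.54, and each line overlapped its neighbours in that order. The KO_S47A libraries lay above those of KO without overlap, with a log2 difference of 0.35 (SE 0.14, 95% interval 0.04 to 0.66, adjusted p = 0.277), which was called with the block (SE 0.10, adjusted p = 0.0223, range over the 12 alternatives 0.0223 to 0.727) and, narrowly, with libraries 1 and 2 alone (adjusted p = 0.04998). KO minus Scramble was −0.16 (95% interval −0.47 to 0.16) and KO_WT minus KO 0.28 (95% interval −0.03 to 0.59), so a loss or a return of LIPA transcript of such a size was not detectable with these libraries.

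Of the other lumenal proteins, GAA, the acid alpha-glucosidase that degrades glycogen, had 85.9, 75.5 and 67.2 CPM in Scramble, 73.7, 62.1 and 62.4 CPM in KO, 88.2, 83.0 and 66.7 CPM in KO_WT, 92.8, 94.2 and 82.6 CPM in KO_S47A, and 98.0, 78.8 and 68.7 CPM in KO_S404A. The KO_S47A libraries lay above those of KO, by 0.45 with the block (SE 0.08). NEU1, the lysosomal sialidase, had 87.7, 91.0 and 57.5 CPM in Scramble, 61.7, 70.5 and 55.8 CPM in KO, 90.9, 83.4 and 55.5 CPM in KO_WT, 99.1, 94.9 and 74.3 CPM in KO_S47A, and 93.3, 67.3 and 55.5 CPM in KO_S404A. It too lay above KO in all 3 KO_S47A libraries, by 0.50 with the block (SE 0.11).

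CTSD had 455, 418 and 333 CPM in Scramble, 356, 335 and 290 CPM in KO, 442, 428 and 306 CPM in KO_WT, 424, 420 and 360 CPM in KO_S47A, and 449, 433 and 311 CPM in KO_S404A. With the block it was lower in KO than in Scramble, at −0.29 (SE 0.08) and higher in KO_S47A than in KO by 0.30 (SE 0.08), comparisons that share the KO libraries. PSAP had 1079, 1134 and 906 CPM in Scramble, 865, 938 and 925 CPM in KO, 1168, 1102 and 961 CPM in KO_WT, 1185, 1161 and 1068 CPM in KO_S47A, and 1189, 1004 and 920 CPM in KO_S404A. In KO_S47A it lay above KO without overlap, by 0.32 with the block (SE 0.09). MITF, with 7.03, 7.49 and 6.90 CPM in KO and 11.2, 10.9 and 7.61 CPM in KO_S47A, was higher by 0.45 with the block (SE 0.15), and had 7.46, 10.1 and 6.94 CPM in Scramble, 9.16, 11.0 and 7.81 CPM in KO_WT, and 10.8, 10.2 and 5.72 CPM in KO_S404A.

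**Figure D4:**
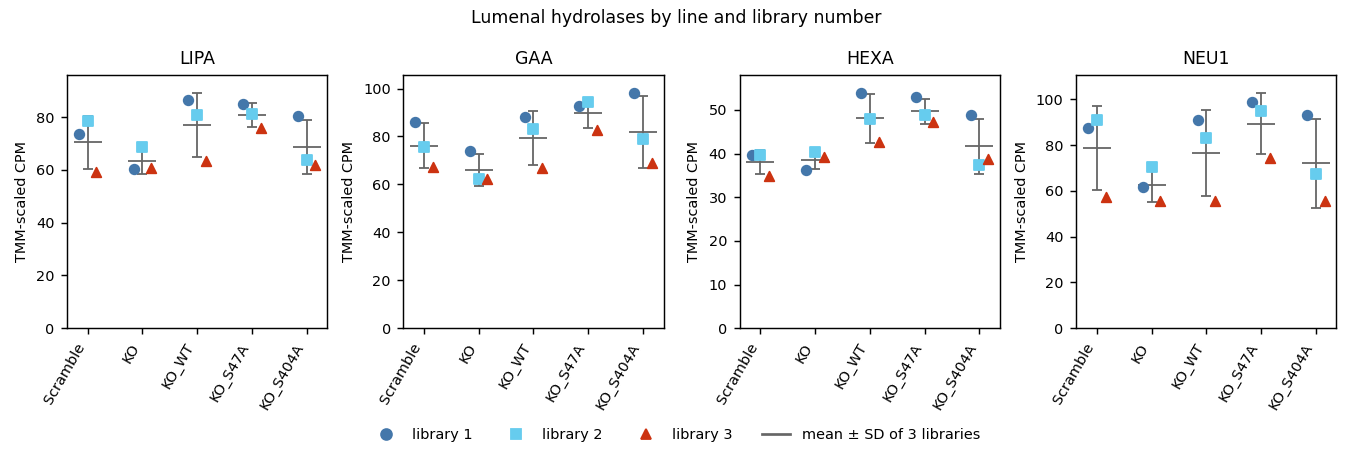
TMM-scaled CPM of LIPA, GAA, HEXA and NEU1 (vertical axes from 0) in the 5 lines, by library number, with grey bars for the mean ± SD of 3 libraries. All 3 KO_S47A points of LIPA (76.0 to 85.0 CPM) lie above the 3 KO points (60.3 to 68.7 CPM).

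Between the 3 addback lines no gene of the 41 was called in the fits of all 15 libraries. In KO_WT minus KO_S47A edgeR called 0 of 41, beside 0% of all genes, and DESeq2 0, beside 0.0281%, with 0 at an unadjusted p under 0.05, beside 2.17%. In KO_S404A minus KO_WT edgeR and DESeq2 each called 0, both beside 0%, with 2 at an unadjusted p under 0.05, beside 8.70%. In KO_S404A minus KO_S47A edgeR called 0, beside 0.00702%, and DESeq2 0, beside 0.0140%, with 1 at an unadjusted p under 0.05, beside 6.59%. With the block 0 of 41 were called in each of these pairs, beside 0.0211%, 0% and 0.0140% of all genes, and 7 were called in the last pair once KO_S404A library 1 was left out, beside 16.8%. Wild-type minus S47A, the comparison of an active with a lipolytically inactive protein, was −0.07 for LIPA (95% interval −0.38 to 0.24) and −0.64 for MAP1LC3B (95% interval −1.59 to 0.32), so differences of these sizes are within what the spread between libraries allows. The median 95% halfwidth over the 41 genes was 0.29 in KO minus Scramble, beside 0.38 for all genes over all comparisons of lines. PNPLA2 itself differed between the addback lines, with 207 to 241 CPM in KO_WT, 110 to 164 CPM in KO_S47A and 303 to 493 CPM in KO_S404A, and the part of its level in these values was not tested.

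The larger division was by library number. Libraries numbered 3 had lower levels of the ATG8 genes, both receptors and several hydrolases than libraries 1 and 2 of the same line, and higher levels of GLA, SCARB2 and MCOLN1. Of the 41 genes 23 were called in that contrast, 6 higher and 17 lower, which is 56.1% beside 45.3% of all genes. Lower were 41.5% of the 41 beside 23.1% of all genes, and higher 14.6% beside 22.2%. For 12 genes library 3 was the lowest in all 5 lines, and for 3 it was the highest in all 5. These 2 counts were not made over all genes, so they do not set the 41 apart from other genes. What the numbers stand for is not given in the labels.

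By role, all 4 ATG8 genes and both receptors were lower in libraries 3. MAP1LC3B differed by −0.99 on the log2 scale (SE 0.13, adjusted p = 3.12e-05), GABARAPL1 at −0.77 (SE 0.10), GABARAP at −0.30 (SE 0.05) and GABARAPL2 at −0.23 (SE 0.08). The receptors differed by −0.70 in NBR1 (SE 0.06, adjusted p = 1.47e-06) and by −0.37 in SQSTM1 (SE 0.05). Of the initiation genes WIPI1 was lower, at −0.94 (SE 0.16, adjusted p = 0.000223) and ULK1 at −0.33 (SE 0.08), while UVRAG and BECN1 were not called. Of the conjugation genes ATG7, the E1-like enzyme, was lower, at −0.29 (SE 0.07), ATG16L1, which places the conjugation complex on the membrane, was higher by 0.18 (SE 0.06), and ATG3, ATG5 and ATG12 were not called. MITF (−0.43, SE 0.10) and TFE3 (−0.17, SE 0.07) were lower, and TFEB at 0.10 (SE 0.08) was not called.

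The lysosome itself was mixed. Among 12 lumenal genes 6 were lower, NEU1 at −0.49 (SE 0.08), CTSD at −0.38 (SE 0.05), TPP1 at −0.33 (SE 0.06), GAA at −0.25 (SE 0.06), LIPA at −0.24 (SE 0.07) and PSAP at −0.17 (SE 0.06). Higher were GLA, alpha-galactosidase A, by 0.58 (SE 0.09, adjusted p = 6.67e-05) and CTSA, the protective protein of NEU1, by 0.18 (SE 0.06), so that NEU1 and its partner in the same complex went opposite ways. GLA had 35.5, 35.2 and 46.1 CPM in Scramble, 34.7, 46.5 and 48.6 CPM in KO, 31.5, 33.2 and 51.2 CPM in KO_WT, 30.4, 25.5 and 51.7 CPM in KO_S47A, and 28.5, 30.3 and 47.8 CPM in KO_S404A, with library 3 the highest in every line. CTSB, CTSZ, HEXA and NPC2 were not called.

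Of 6 membrane proteins SCARB2 and MCOLN1 were higher, each by 0.25 (SE 0.05), and LAMP1, LAMP2, NPC1 and CLN3 were not called. MCOLN1, the lysosomal calcium channel mucolipin 1, had 26.5, 23.5 and 29.4 CPM in Scramble, 27.1, 24.8 and 28.9 CPM in KO, 25.9, 26.1 and 32.7 CPM in KO_WT, 25.6, 24.6 and 31.4 CPM in KO_S47A, and 28.2, 26.8 and 32.1 CPM in KO_S404A, so that every library 3 lay above all libraries 1 and 2. Of 5 pump subunits ATP6V0D1 was higher by 0.15 (SE 0.05), and ATP6V1A, ATP6V1B2, ATP6V1H and ATP6AP1 were not called. Leaving out 1 library at a time left 18 to 25 genes called, beside 35.0% to 47.4% of all genes. The calls of PSAP, TFE3, GABARAPL2, ATP6V0D1, ATG16L1 and CTSA were lost in 10, 11, 9, 6, 2 and 2 of the 15 omissions.

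**Figure D5:**
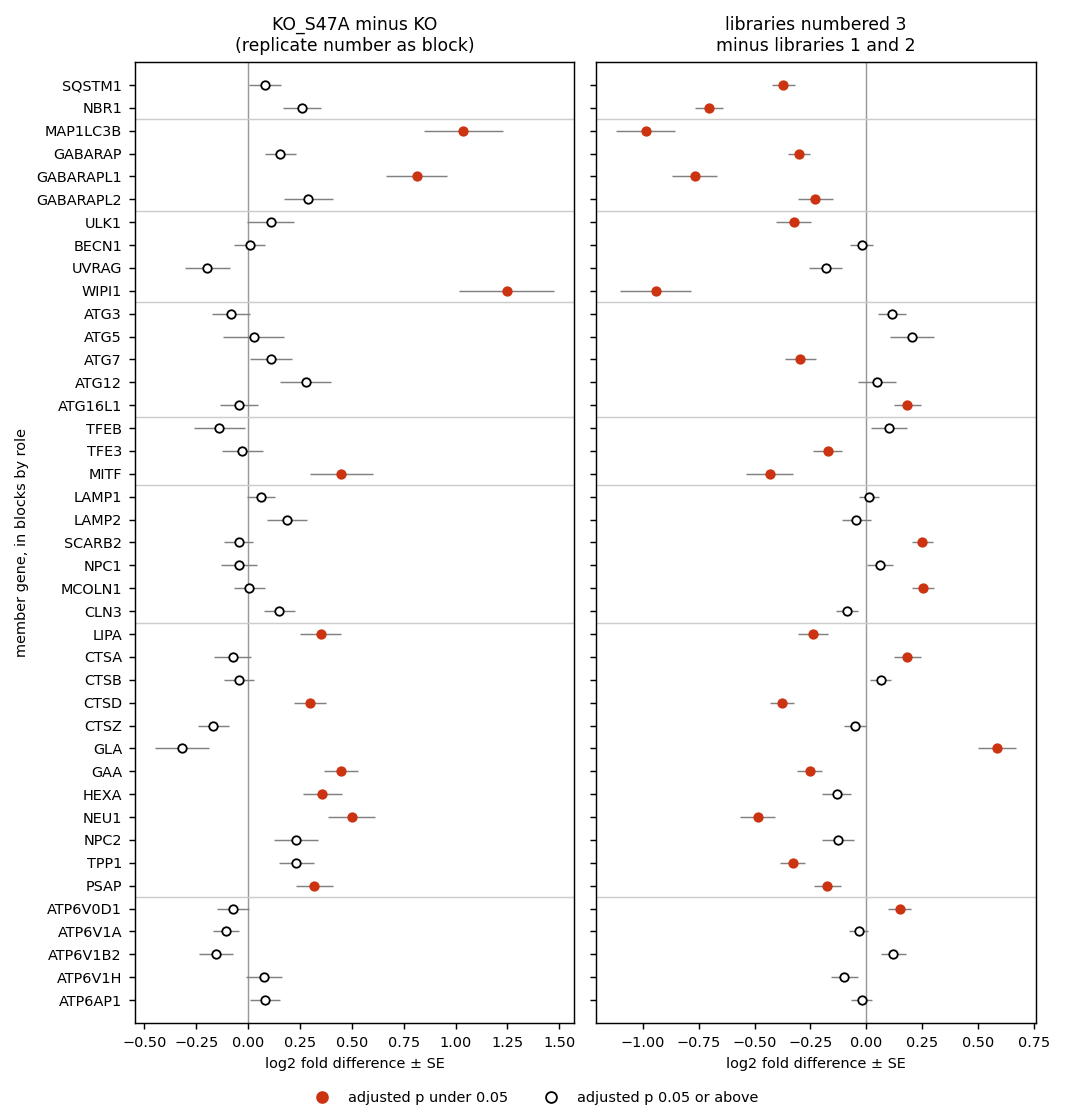
Log2 fold differences ± SE (horizontal axes) of the 41 genes, in blocks by role, for KO_S47A minus KO with the library number as block (left) and for libraries numbered 3 minus libraries 1 and 2 (right). Filled points had an adjusted p under 0.05, 10 on the left and 23 on the right, among them MAP1LC3B at 1.04 and −0.99.

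Other groups of genes differed by library number too. Of 22 textbook ATF4 and amino acid response genes 21 were lower in libraries 3, with a median log2 difference of −1.53, and all 22 proliferation markers were higher, with a median of 1.04. The medians were −0.10 for the 41 genes and −0.02 for all tested genes. The part of these in the members' values was not tested. Whether the difference between lines itself depended on library number was tested with an interaction. In any of the 10 pairs of lines, 0 of the 41 and 0 of all genes were called. That fit had 5 residual degrees of freedom and a single library 3 in each line. Its lack of calls therefore does not show that the differences were the same in all library numbers. For KO_S47A minus KO 5 of the 41 (12.2%) had an unadjusted p under 0.05, beside 9.90% of all genes, and the lowest adjusted p of a member was 0.323.

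The 7 genes with a CLEAR box in the window had a median log2 difference of 0.12 in libraries 3 (range −0.25 to 0.25), with 3 called higher and 1 lower. The 26 without that exact sequence had a median of −0.23 (range −0.99 to 0.58), with 3 higher and 15 lower. Of all tested genes 22.2% were called higher and 23.1% lower. Other tested genes with TCACGTGA were not split in this way, so the split does not set these genes apart. In KO_S47A minus KO the medians were 0.01 and 0.14. WIPI1, MAP1LC3B and GABARAPL1, picked for their wide spread among these libraries, were among the 26 of 33 genes without an exact TCACGTGA. With most genes in that group, their place in it says little. These splits are descriptions of 33 genes and were not tested.

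The rest of the pathway was read in 7 further lists, of hydrolases, membrane proteins, pump subunits, autophagy initiation and conjugation, receptors, fusion and nutrient sensing, of which 149 genes were tested. In KO minus Scramble 1 was higher and 4 lower (3.36%), beside 2.69% of all genes. ATG10, the E2-like enzyme that joins ATG12 to ATG5, was higher by 0.78 (SE 0.16, adjusted p = 0.0148). The lower were ARSA, arylsulfatase A, at −0.71 (SE 0.17), SLC36A1, a lysosomal amino acid exporter, at −0.51 (SE 0.11), STBD1, a glycogen-binding autophagy receptor, at −0.50 (SE 0.12), and the pump subunit ATP6V1E1 at −0.47 (SE 0.08). ARSA and ATP6V1E1 lie on chromosome 22, as do SNAP29 and DEPDC5 below, by the RefSeq gene table, and none of the 41 genes does.

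SLC36A1 was called against Scramble in every line. It had 48.0, 46.6 and 48.3 CPM in Scramble, 34.7, 33.1 and 32.6 CPM in KO, 28.6, 33.1 and 32.0 CPM in KO_WT, 25.1, 28.4 and 28.6 CPM in KO_S47A, and 28.8, 38.9 and 36.2 CPM in KO_S404A, and no library of the 4 lines reached the Scramble range. In KO_WT minus Scramble 3 of the 149 were higher (AGA, ATG10 and OPTN) and 4 lower (SLC36A1, ATP6V1E1, SNAP29 and DEPDC5), in all 4.70% beside 3.47% of all genes. In KO_S47A minus Scramble 5 were higher and 6 lower (7.38%), beside 3.82%, and in KO_S404A minus Scramble 0 were higher and 4 lower (2.68%), beside 3.11%. The receptor OPTN was higher by 1.33 (SE 0.33) in KO_WT and by 1.54 (SE 0.33) in KO_S47A.

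Against the knockout 0 of the 149 were called in KO_WT, in KO_S47A and in KO_S404A by edgeR, with 14, 31 and 5 at an unadjusted p under 0.05, beside 7.58%, 16.8% and 4.08% of all genes. With the block 28 were higher and 5 lower in KO_S47A minus KO. The 149 were thus called as often as all genes (22.1%), with 18.8% higher and 3.36% lower beside 10.6% and 11.5% of all genes. Among the higher was LAMP3, a lysosomal membrane protein, with 2.05, 1.78 and 0.636 CPM in KO and 27.6, 27.9 and 0.847 CPM in KO_S47A. Its libraries 1 and 2 were far apart between these lines and its libraries 3 close. The interaction, as given above, called no gene, and with a single library 3 in each line it could miss such a pattern. By library number 22 of the 149 were higher and 50 lower (48.3% called), beside 45.3% of all genes. Higher were 14.8% beside 22.2% of all genes, and lower 33.6% beside 23.1%. Among the lower were LAMP3 at −3.81 (SE 0.42) and the receptors OPTN at −0.73 (SE 0.11) and CALCOCO2 at −0.65 (SE 0.07). Of 38 further hydrolases 14 were higher and 9 lower, and of 10 further receptors 0 were higher and 6 lower. Of the 8 tested genes in the list of neutral lipases and their regulators, MGLL, monoacylglycerol lipase, was higher in KO than in Scramble by 0.65 (SE 0.13). PNPLA2 was lower, at −2.11 (SE 0.20).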

How the data were processed

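RNA was poly(A)-selected and made into libraries with a directional kit, per the labels' protocols. The authors deposited, for each of 15 libraries, read counts per gene, whole numbers without normalization, and FPKM values of the same genes, from which only the implied gene lengths were taken. Of software, the submitters' processing notes list STAR and CASAVA, with no version. Genome build, annotation and strandedness of counting were not given in the sources used here, and reads of overlapping or antisense genes cannot be told apart. Unassigned reads, 13.2% to 20.6% of each library, were left out.

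Counts were analysed in R 4.3.3 with edgeR 4.0.16 (filterByExpr, TMM, quasi-likelihood test, 1 mean per line, all 15 libraries, 10 residual degrees of freedom), and p-values were adjusted over 14246 genes within each comparison. The SE was approximated as the absolute log2 difference over the root of the F statistic. A second fit added the library number as a block. Correlations of same-numbered libraries' deviations from their line means ran from 0.02 to 0.68, and each was over 0.1 in 8 of 10 comparisons. For libraries 3 they were 0.40 to 0.68, and those with other numbers were negative. For libraries 1 and 2 a correlation with another number was the larger in several comparisons, as in KO_WT minus KO library 1 (0.25 against 0.16). The rule asked only for same-numbered correlations over 0.1, so the numbers were taken as pairing in those 8 comparisons. They were not so taken in KO_S404A minus KO and KO_S404A minus Scramble. Deviations within a line cancel, so a shift shared by libraries 3 alone also makes libraries 1 and 2 of different lines correlate. The rule can therefore be met without any pairing of libraries 1 or of libraries 2, and it does not show such pairing. Alternatives were DESeq2 1.42.0, RLE size factors, no filter, the 2 lines alone, libraries 1 and 2 alone, and each library left out. The interaction and the block fits with a library left out were chosen after seeing the data. The scripts were tested on simulated data.

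The members and lists were chosen with earlier results of these data known. Values in every library are given for members called in any comparison of lines with or without the block, for LIPA, and for the 3 largest and 3 smallest differences by library number. Other genes follow lists of hydrolases, membrane proteins, pump subunits, autophagy initiation and conjugation, receptors, fusion and nutrient sensing. Further lists hold neutral lipases and their regulators, ATF4 targets, proliferation genes, and markers of prostate luminal, macrophage and blood, stromal and endothelial, and non-prostate epithelial cells. Stromal and endothelial markers summed to 15.6 to 38.7 CPM, and non-prostate epithelial markers to 0.33 to 1.61 CPM.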

Additional observations from a re-analysis of the deposited data

How the results depend on the processing

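With the replicate block, the count of the 41 genes called changed from 1 to 4 in KO minus Scramble, 0 to 10 in KO_S47A minus KO, 2 to 5 in KO_WT minus Scramble, 1 to 11 in KO_S47A minus Scramble and 0 to 4 in KO_S404A minus Scramble (9.76% beside 10.7% of all genes). The numbers do not meet the rule for pairing in the last of these. In the remaining 5 comparisons of lines the block changed no count of members. DESeq2 called 2 in KO minus Scramble, KO_S47A minus Scramble and KO_S404A minus Scramble, beside 4.84%, 7.67% and 6.28% of all genes. RLE size factors gave 2 in KO_S47A minus Scramble and 1 in KO_S404A minus Scramble, beside 3.97% and 3.38% of all genes. No filter gave 1 in KO_WT minus Scramble and 1 in KO_S404A minus Scramble, beside 2.42% and 2.03%. Libraries numbered 1 and 2 alone gave 12 in KO_S47A minus KO (21.6% of all genes called), 1 in KO_S404A minus KO (2.81%), 1 in KO_WT minus Scramble (5.11%), 7 in KO_S47A minus Scramble (15.0%) and 3 in KO_S404A minus Scramble (6.84%). A fit of the 2 lines alone gave 0 in KO_WT minus Scramble and 0 in KO_S47A minus Scramble, beside 2.52% and 2.15%. Leaving out 1 library at a time gave 0 to 1 in each of KO, KO_WT, KO_S47A and KO_S404A minus Scramble. The shares of all genes called in these fits were 1.41% to 2.01%, 1.65% to 3.04%, 1.62% to 6.78% and 1.65% to 2.59%. With the replicate block the omissions gave 1 to 3 in KO minus Scramble, beside 4.39% to 9.26% of all genes. In KO_WT minus KO they gave 0 to 5 (5 without KO library 3), beside 0.0414% to 7.90%. In KO_S47A minus KO they gave 4 to 13 (4 to 6 without KO library 1 or KO_S47A library 1 or 2), beside 2.78% to 24.7%. In KO_WT minus Scramble they gave 1 to 3, beside 5.08% to 7.14%. In KO_S47A minus Scramble they gave 2 to 9, beside 7.16% to 19.6% (2 to 6 without any 1 Scramble library or KO_S47A library 1 or 2). In KO_S404A minus KO_S47A they gave 0 to 7 (7 without KO_S404A library 1), beside 0.00689% to 16.8%. The causes were not tested.

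LIPA changed sign, never past the threshold, in KO_S404A minus KO (−0.0077 without KO_S404A library 1, range over omissions −0.0077 to 0.19), in KO_S404A minus Scramble (0.028 without Scramble library 2, 0.014 without KO_S404A library 2 and 0.033 without KO_S404A library 3, range −0.16 to 0.033) and in KO_WT minus KO_S47A (0.012 with libraries 1 and 2 alone and 0.053 without KO_WT library 3, range −0.16 to 0.053). NBR1 changed sign in KO minus Scramble (−0.13 without Scramble library 3 and −0.074 without KO library 1, range −0.13 to 0.20). Alternatives were run for LIPA in every pair of lines and for other members only where they were called, with or without the block, or have a value printed without a call, and of those values no other changed sign. With 3 libraries a line, the median 95% halfwidth was 0.29 in log2 difference in KO minus Scramble, so smaller changes of single genes were mostly not detectable. It is not adjusted for the number of genes tested and is no limit of detection. Larger differences also went uncalled without the block, that of WIPI1 in KO_S47A minus KO among them. The proteins of the members were not analysed here.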
